A study of Mus musculus with 6 samples.

Results

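The common gamma chain receptors comprise the chains through which T cells take up signals from IL-2, IL-4, IL-7, IL-9, IL-15 and IL-21. The 6 chains chosen by symbol were Il7r, Il2ra, Il2rb, Il2rg, Il4ra and Il21r, and every probe set that the platform annotation pairs with only 1 of these symbols was taken. That gave 10 probe sets for 5 of the 6 genes, out of 45101 probe sets on the array and 18194 genes with a probe set of their own. Il2rg, the shared gamma chain itself, was not analysed here.

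Transcripts were measured on 6 oligonucleotide arrays of sorted regulatory T cells (Treg cells), the Foxp3-dependent CD4 T cells that restrain immune responses, from C57BL/6 mice. The Foxo1KO/Foxo1AAA group, Foxo1 knockout mice that also carry a constitutively active form of the forkhead factor Foxo1, had 1 array. The Foxo1KO group had 2 arrays, the Foxo1AAA group (the constitutively active form with no knockout in its label) had 1, and the wild type (WT) group had 2. The cells are labelled as nTreg in all 4 groups. The labels give neither the driver of the deletion nor the site and promoter of the Foxo1AAA transgene, nor the ages of the mice, any pooling of animals or the sorting gates. Whether CD25, the protein of Il2ra, was used to sort the cells was therefore not known, and a gate on CD25 would bear on the Il2ra level.

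These receptors work as pairs or trios of chains. The gamma chain brings the kinase Jak3, and the chain that signals beside it brings Jak1. For IL-2 and IL-15 that chain is Il2rb. The kinases phosphorylate STAT factors: chiefly STAT5 for IL-2, IL-7 and IL-15, STAT6 for IL-4 and STAT3 for IL-21. Treg cells are known for a high level of the IL-2 receptor, on which they depend, and for a level of the IL-7 receptor below that of conventional naive T cells. Il7r is a known direct target of Foxo1 in T cells.

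The promoter windows of Il7r and Il21r are shown because these were the members whose levels differed between Foxo1KO and WT. Sequences are from RefSeq (GRCm38.p6), and 5 of the 6 members had an entry; Il2rb had none. The starts are those of the RefSeq promoter table, which lie inside the outer bounds of both genes. The Il7r gene lies on chromosome 15 from 9506159 to 9529941, and its 250 bases before the start (chr15:9529877-9530126, minus strand) are given with the Ets core letters GGAA or TTCC in capitals. The 30 bases of Il21r (chr7:125603380-125603409, plus strand, gene at 125603252 to 125634397 on chromosome 7) have the Foxo letters TGTTTAC in capitals.
Il7r: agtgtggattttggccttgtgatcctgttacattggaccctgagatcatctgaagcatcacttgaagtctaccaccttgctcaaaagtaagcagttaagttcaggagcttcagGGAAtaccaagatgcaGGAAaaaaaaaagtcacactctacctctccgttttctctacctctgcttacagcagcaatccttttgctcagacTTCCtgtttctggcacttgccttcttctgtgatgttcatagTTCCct
Il21r: gggcggggcacTGTTTACcacatcccctcc

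The Foxo letters GTAAACA or TGTTTAC, searched on both strands in the 250 bases before the start, occurred in 3.17% of 32851 promoter windows. Among the members they occurred once, 38 bases before the start of Il21r, and not in the windows of Il7r, Il2ra, Il2rg and Il4ra. The Ets core letters GGAA or TTCC occurred 4 times in the Il7r window, where 93.4% of all windows hold at least 1. The STAT letters TTCNNNGAA, present in 7.02% of windows, occurred once in Il7r, overlapping the first capital run, and in none of the other 4. A match of letters is a description of these windows. Il4ra (125552271 to 125579474) and Il21r are neighbours on chromosome 7, with 23777 bases between them. Il2rb lies on chromosome 15 (78479256 to 78511621), as Il7r does, and Il2ra on chromosome 2 (11642792 to 11693194).

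The arrays differed in ways that bear on the comparisons. Across all probe sets Pearson's r was 0.9941 between the Foxo1KO/Foxo1AAA and the Foxo1AAA array, and 0.9707 to 0.9799 between either of them and the Foxo1KO or WT arrays. All 5 tested myeloid markers were called higher on the Foxo1KO/Foxo1AAA and the Foxo1AAA array than in WT, and 2 of them were also called higher in Foxo1KO than in WT, Lyz2 by 0.92 (adjusted p = 0.00935) and Cd68 by 0.55 (adjusted p = 0.017). The summed signal of the 6 measured myeloid markers was 13.11 in log2 units on the Foxo1KO/Foxo1AAA array and 12.85 on the Foxo1AAA array, against 9.80 to 10.32 on the Foxo1KO and 9.49 to 9.88 on the WT arrays. Of these markers Itgam stayed below the dimmest tested mean (5.47) on every array. The 5 measured B cell markers summed to 10.59 and 10.84 on the Foxo1KO/Foxo1AAA and Foxo1AAA arrays, against 9.19 to 9.83 on the Foxo1KO and 9.17 to 9.34 on the WT arrays. Against WT, 4 of the 5 were called higher on each array with Foxo1AAA, and none was called in Foxo1KO. Pax5 did not follow the sum, at 6.63 to 6.95 over all arrays. Ms4a1 was at 8.32 on Foxo1KO replicate 1 and 6.25 on replicate 2. Against WT, 30.7% of all tested genes were called in Foxo1KO/Foxo1AAA, 27.5% in Foxo1AAA and 21.8% in Foxo1KO. Of 4 tested dendritic cell markers, 3 were called higher and 1 lower on each array with Foxo1AAA than in WT. None of the 4 was called in Foxo1KO. The part of myeloid, B cell or dendritic cell RNA in the receptor values was not tested. The X inactivation transcript Xist was at 6.27 and 6.03 on the Foxo1KO/Foxo1AAA and Foxo1AAA arrays and at 12.03 to 13.43 on the other 4, so the sex of the mice and Foxo1AAA cannot be told apart. The Y chromosome gene Eif2s3y was at 4.05 on Foxo1KO replicate 1 and 3.91 on WT replicate 1, and at 9.91 to 10.59 on the other 4 arrays. Replicate 2 of Foxo1KO and of WT thus carried both Xist (12.59 and 12.03) and Y chromosome signal, as RNA from mice of both sexes does. Among Treg and T cell markers Ctla4, Ikzf2, Cd3g and Tnfrsf18 were above 12 on all arrays. Cd3e lay between 10.54 and 10.82, Cd4 between 9.28 and 9.70, and the only Foxp3 probe set between 5.10 and 5.58, a dim range. In Foxo1KO against WT Cd4 was called lower (-0.37, adjusted p = 0.0193) and Ctla4 higher (0.46, adjusted p = 0.0459). Ikzf2 was called lower in Foxo1KO/Foxo1AAA against Foxo1KO (-0.34, adjusted p = 0.0413), where 39.8% of all tested genes were called. Foxo1 itself measured 9.66 on the Foxo1KO/Foxo1AAA array, 10.87 and 10.65 on the Foxo1KO arrays, 10.71 on the Foxo1AAA array, and 11.03 and 11.35 on the WT arrays; whether its probe set lies in the deleted part of the gene is not known here.

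All values are log2 signals after RMA, a method that corrects background, makes the arrays' distributions alike and summarizes the probes of each set. They saturate when bright and flatten when dim. Levels of different probe sets are not comparable with each other. A gene was represented by its probe set with the highest mean, and it was called changed at an adjusted p under 0.05 over 13645 tested genes (limma, Benjamini-Hochberg). All 5 measured members passed the filter on low signal.

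Il7r, the ligand-binding chain of the IL-7 receptor, was the member that varied most. Its brighter probe set (1448575_at) measured 12.60 on the Foxo1KO/Foxo1AAA array, 10.00 and 10.50 on the Foxo1KO arrays, 12.22 on the Foxo1AAA array, and 11.74 and 11.71 on the WT arrays. Both Foxo1KO arrays were the lowest, both arrays with Foxo1AAA were the highest, and no group overlapped another. The second probe set (1448576_at) read 11.38 in Foxo1KO/Foxo1AAA, 8.53 and 8.89 in Foxo1KO, 10.93 in Foxo1AAA, and 10.56 and 10.52 in WT. It gave the same order of groups. The range over the 6 arrays was 2.60 log2 units for the first set and 2.86 for the second, against 0.24 to 0.73 for the 8 probe sets of the other members.

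**Figure D1:**
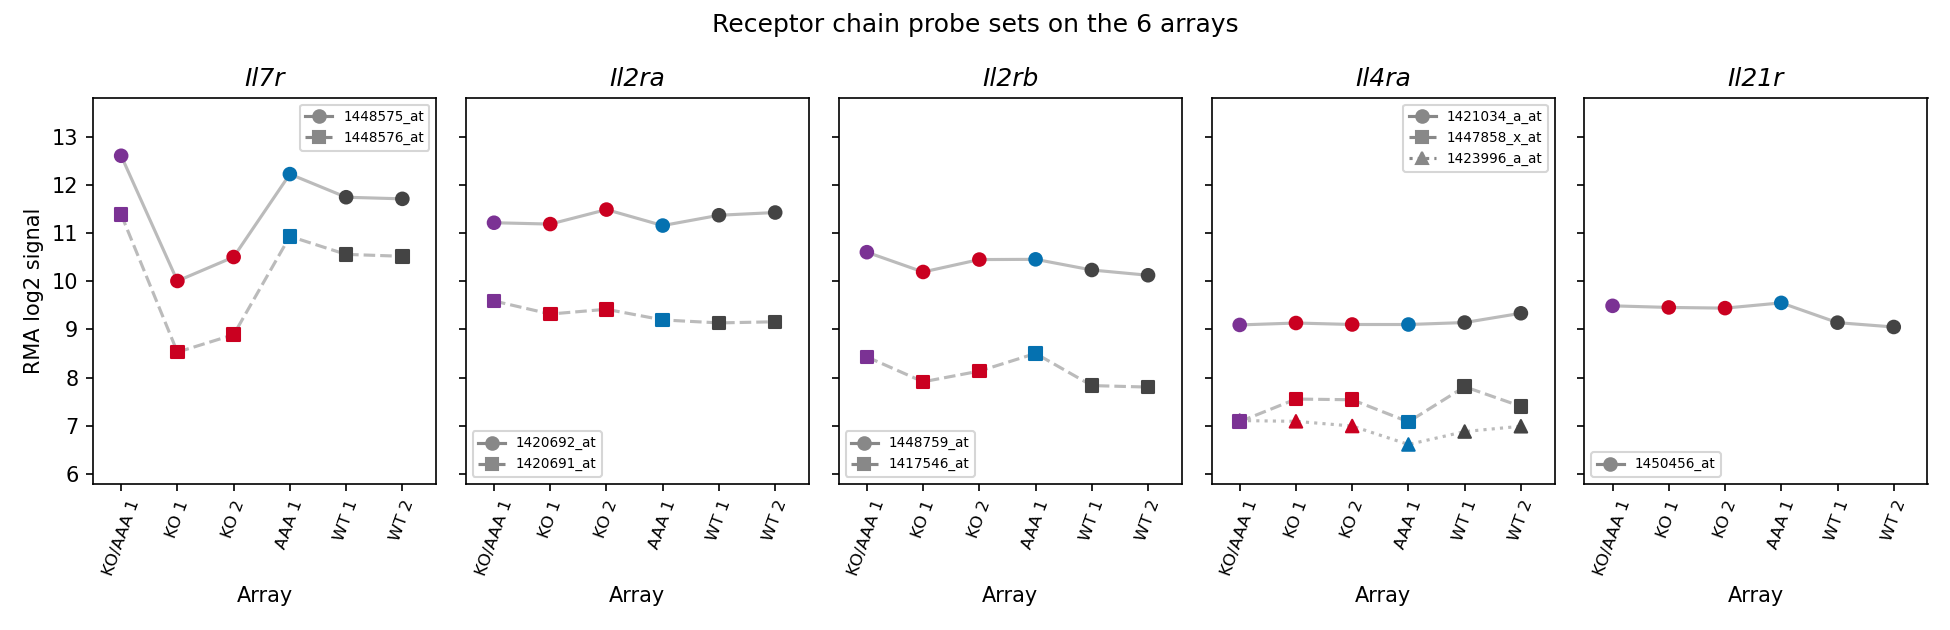
RMA log2 signal (vertical axis) of the 10 receptor chain probe sets on each of the 6 arrays (horizontal axis, KO/AAA being Foxo1KO/Foxo1AAA, KO Foxo1KO and AAA Foxo1AAA), with 1 marker shape per probe set and grey lines only to join a set's points. Both Il7r probe sets dip on the Foxo1KO arrays and peak on the Foxo1KO/Foxo1AAA array, while the other probe sets range over at most 0.73 log2 units.

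Il2ra, the chain that gives the IL-2 receptor its high affinity, was bright in every group. Its brighter probe set (1420692_at) measured 11.21 in Foxo1KO/Foxo1AAA, 11.18 and 11.48 in Foxo1KO, 11.15 in Foxo1AAA, and 11.37 and 11.42 in WT. The 2 Foxo1KO arrays spanned most of this range, so the groups overlapped. The dimmer set (1420691_at) was ordered differently: it read 9.59 in Foxo1KO/Foxo1AAA, 9.32 and 9.42 in Foxo1KO, 9.20 in Foxo1AAA, and 9.13 and 9.16 in WT. On that set WT was lowest and Foxo1KO/Foxo1AAA highest.

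Il2rb, the signalling chain that the IL-2 and IL-15 receptors share, was highest on the Foxo1KO/Foxo1AAA array by its brighter set (1448759_at). That set measured 10.60 in Foxo1KO/Foxo1AAA, 10.19 and 10.45 in Foxo1KO, 10.45 in Foxo1AAA, and 10.23 and 10.12 in WT. The Foxo1KO and WT arrays overlapped. The dimmer set (1417546_at) read 8.43 in Foxo1KO/Foxo1AAA, 7.91 and 8.13 in Foxo1KO, 8.50 in Foxo1AAA, and 7.83 and 7.80 in WT. On this set both arrays with Foxo1AAA stood above the other 4 and both WT arrays were lowest.

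Il4ra, the chain that binds IL-4 and that IL-13 receptors also use, had 3 probe sets. The brightest (1421034_a_at) measured 9.09 in Foxo1KO/Foxo1AAA, 9.13 and 9.10 in Foxo1KO, 9.10 in Foxo1AAA, and 9.14 and 9.33 in WT. WT replicate 2 was the only array above 9.2. The set 1447858_x_at, of a class that can also bind other transcripts, read 7.08 in both Foxo1KO/Foxo1AAA and Foxo1AAA, against 7.55 and 7.54 in Foxo1KO and 7.81 and 7.40 in WT. The set 1423996_a_at read 7.11 in Foxo1KO/Foxo1AAA, 7.09 and 6.99 in Foxo1KO, 6.61 in Foxo1AAA, and 6.88 and 6.99 in WT. The 3 sets ordered the arrays differently: on the second both arrays with Foxo1AAA stood below the other 4, on the third Foxo1KO/Foxo1AAA was the highest and Foxo1AAA the lowest, and on the first 5 of the 6 arrays lay within 9.09 to 9.14.

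Il21r, the ligand-binding chain of the IL-21 receptor, had 1 probe set (1450456_at). It measured 9.49 in Foxo1KO/Foxo1AAA, 9.45 and 9.44 in Foxo1KO, 9.55 in Foxo1AAA, and 9.14 and 9.05 in WT. Both WT arrays lay below the other 4, which spanned 9.44 to 9.55. The summed signal of 5 CD8 T and NK cell markers had the same split: it was 10.22 in Foxo1KO/Foxo1AAA, 10.10 and 10.00 in Foxo1KO, 9.79 in Foxo1AAA, and 9.18 and 9.24 in WT, in log2 units. Of these markers Klrd1 was called higher than in WT by 3.18 in Foxo1KO/Foxo1AAA, 1.23 in Foxo1KO and 2.70 in Foxo1AAA. The others did not all follow this split. Eomes differed from WT by 1.05, 2.25 and 0.27 in the same groups, the last not called. Cd8a differed by -0.44, 0.19 and -0.67, of which only the last was called. Of the 5 markers, 3 were called higher in Foxo1KO/Foxo1AAA, 2 in Foxo1KO and 2 in Foxo1AAA. Of all tested genes 17.0%, 11.2% and 13.4% were called higher there. The part of CD8 T and NK cells in the Il21r values was not tested.

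The comparison of Foxo1KO with WT asked which of these transcripts depend on Foxo1. Il7r fell 2.77-fold in Foxo1KO, to 10.25 ± 0.35 against 11.72 ± 0.02 in WT (SD over 2 arrays per group). The log2 difference was -1.47 with an SE of 0.15 (limma, adjusted p = 0.000175). It was the 74th largest fall among the 13645 genes. Il21r rose 1.28-fold, to 9.45 ± 0.01 in Foxo1KO against 9.09 ± 0.06 in WT (log2 difference 0.35, SE 0.09, adjusted p = 0.0262). Thus 1 of 5 measured members rose and 1 fell, where 21.8% of all tested genes were called, 11.2% higher and 10.7% lower. The median difference of the 5 was -0.06, and that of all tested genes 0.03. In sorted cells in bulk, fewer cells that carry Il7r and less Il7r RNA per cell cannot be told apart. The Il7r call held in all 15 alternative analyses, with differences from -1.83 to -1.22. The Il21r call ended without any of the 4 arrays: adjusted p was 0.0555 without WT replicate 1, 0.143 without WT replicate 2, 0.104 without Foxo1KO replicate 1 and 0.09 without Foxo1KO replicate 2, with differences of 0.31 to 0.40. It also ended with the replicate number as a block (0.0633). Within the number 1 arrays, which lack Y chromosome signal, the difference of Foxo1KO from WT was -1.74 for Il7r and 0.32 for Il21r. Within the number 2 arrays, which carry it together with Xist, it was -1.21 and 0.39.

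The IL-2 and IL-4 receptor chains were not called in this comparison. Il2ra was at 11.33 ± 0.21 in Foxo1KO and 11.40 ± 0.04 in WT (log2 difference -0.06, 95% interval -0.33 to 0.21, adjusted p = 0.775). Il2rb was at 10.32 ± 0.18 in Foxo1KO and 10.18 ± 0.08 in WT (difference 0.14, interval -0.12 to 0.40, adjusted p = 0.437). Il4ra was at 9.12 ± 0.02 in Foxo1KO and 9.24 ± 0.14 in WT (difference -0.12, interval -0.35 to 0.11, adjusted p = 0.465). The widest of these intervals reach 0.40 log2 units above 0 and 0.35 below. With every probe set fitted on its own, 13.7% of all sets were called, and among the members' 10 sets these were both Il7r sets (-1.47 and -1.83) and the Il21r set (0.35). The sets of Il2ra pointed in opposite directions, at -0.06 and 0.22 (adjusted p = 0.832 and 0.207). Those of Il2rb were both above 0, at 0.14 and 0.21 (adjusted p = 0.537 and 0.303). Those of Il4ra read -0.12, -0.06 and 0.11 (adjusted p = 0.568, 0.859 and 0.6).

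Foxo1KO/Foxo1AAA cells were then set against Foxo1KO cells, to see whether active Foxo1 restores these transcripts in the knockout. Il7r rose 5.10-fold, to 12.60 in Foxo1KO/Foxo1AAA against a mean of 10.25 in Foxo1KO (log2 difference 2.35, SE 0.18, adjusted p = 4.45e-05), the 116th largest rise. It was the only one of the 5 members called here, where 39.8% of tested genes were called, 19.6% higher and 20.2% lower, with a median over all genes of -0.015. The single Foxo1KO/Foxo1AAA array had no replicate, and its spread was assumed to be that of the WT and Foxo1KO pairs. Il21r, the member that rose in Foxo1KO, differed by 0.04 (interval -0.22 to 0.30, adjusted p = 0.803). The other chains differed by 0.28 for Il2rb (interval -0.03 to 0.60, adjusted p = 0.137), -0.12 for Il2ra (interval -0.45 to 0.20, adjusted p = 0.524) and -0.02 for Il4ra (interval -0.31 to 0.26, adjusted p = 0.893). With the Il2rb and Il4ra probe sets that varied most in place of the brightest, both were called, Il2rb at 0.41 (adjusted p = 0.0374) and Il4ra at -0.46 (adjusted p = 0.049). That rule picks a set by its spread over these same arrays, which favours a call. With every probe set fitted on its own, neither set was called (adjusted p = 0.0512 and 0.0684). The size of both differences thus varied with the probe set.

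Set against WT, the same arrays as in the knockout comparison, the Foxo1KO/Foxo1AAA array stood above it for 3 of 5 members. Il7r was 1.84-fold higher (12.60 against a WT mean of 11.72, log2 difference 0.88, SE 0.18, adjusted p = 0.00897). Il2rb was 1.34-fold higher (10.60 against 10.18, difference 0.42, SE 0.14, adjusted p = 0.0473), and Il21r 1.31-fold higher (9.49 against 9.09, difference 0.39, SE 0.11, adjusted p = 0.0314). Il2ra differed by -0.18 (interval -0.51 to 0.14) and Il4ra by -0.15 (interval -0.43 to 0.14), and neither was called. With its probe set that varied most in place of the brightest, Il4ra was called lower, at -0.52. That set was picked by its spread over these arrays, and it was not called with every probe set fitted (adjusted p = 0.054). In this comparison 30.7% of tested genes were called, 17.0% higher. The Il2rb call ended without WT replicate 1 (adjusted p = 0.0512) and without WT replicate 2 (0.136), and the Il21r call without WT replicate 2 (0.121). Both calls also ended with a second quantile normalization (0.0682 and 0.13). Il2ra was called higher by its dimmer probe set (0.44, adjusted p = 0.0311 over every probe set, of which 24.3% were called), while its brighter set differed by -0.18.

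Foxo1AAA alone was also set against the same WT arrays. Il21r was 1.37-fold higher on the Foxo1AAA array (9.55 against a WT mean of 9.09, log2 difference 0.46, SE 0.11, adjusted p = 0.0197), and it was the 1 member called, where 27.5% of tested genes were called and 13.4% were called higher. That call ended without WT replicate 2 (adjusted p = 0.0756) and with a second quantile normalization (0.0639). Il7r differed by 0.50 (12.22 in Foxo1AAA, 11.72 in WT, interval 0.08 to 0.92, adjusted p = 0.0769), short of the threshold. It passed when Foxo1KO replicate 1 or 2 was left out (0.0222 in both cases) and with an intensity trend in the variance prior (0.0374). It also passed with arrays centred on their medians (difference 0.61, adjusted p = 0.0219), a scaling that raised the median gene by 0.11 in this comparison. Il2rb differed by 0.28 on its brighter set (interval -0.04 to 0.59, adjusted p = 0.17) and by 0.68 on its dimmer one (adjusted p = 0.0101 over every probe set, of which 23.6% were called). Il2ra differed by -0.24 (interval -0.57 to 0.08) and Il4ra by -0.14 (interval -0.42 to 0.15). Il4ra was called lower with the mean of its probe sets (-0.33) and with the set that varied most (-0.53). The latter was picked by its spread over these arrays, and it was not called with every probe set fitted (adjusted p = 0.0537). The Il4ra result thus rests on the choice of probe set.

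The Foxo1KO/Foxo1AAA and Foxo1AAA arrays showed no called difference in any of the 5 members, and 0.0733% of tested genes were called there. Il7r differed by 0.38 (12.60 in Foxo1KO/Foxo1AAA, 12.22 in Foxo1AAA, interval -0.10 to 0.87, adjusted p = 0.654), and unadjusted p ranged from 0.109 to 0.953 over the 5 members. The knockout difference of Il7r was 0.38 with Foxo1AAA and -1.47 without it. The test of that interaction gave 1.85 (SE 0.26, adjusted p = 0.00586), the 28th largest of 13645, where 5.94% of genes were called. No other member passed it: the interaction was -0.41 for Il21r (adjusted p = 0.203), 0.12 for Il2ra (0.83), 0.11 for Il4ra (0.813) and 0.01 for Il2rb (0.992).

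**Figure D2:**
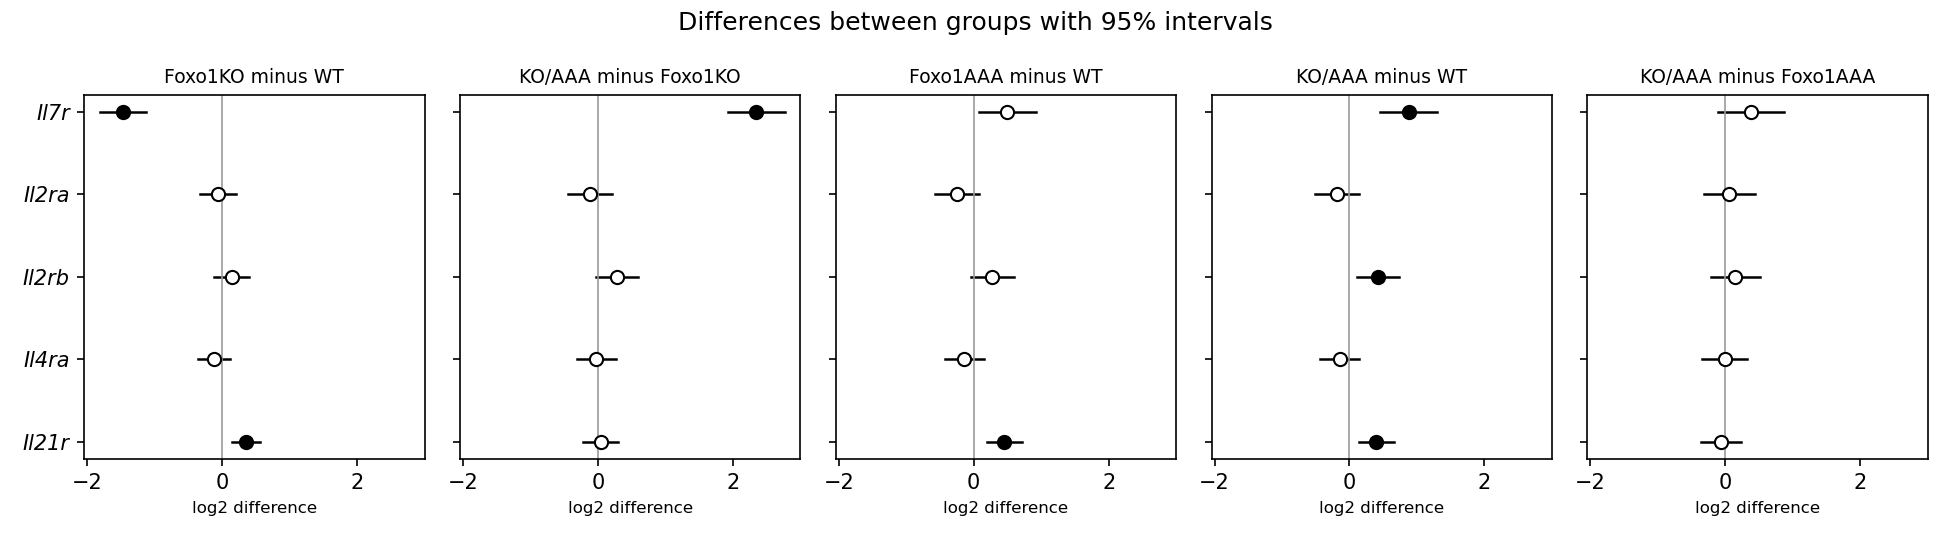
Log2 differences (horizontal axis) of the 5 measured receptor chains in 5 comparisons of groups, each with its 95% interval from the limma fit over all 6 arrays; filled points passed the adjusted threshold and open ones did not. Il7r lies at -1.47 in Foxo1KO minus WT and at 2.35 in Foxo1KO/Foxo1AAA minus Foxo1KO, while the Il2ra and Il4ra intervals include 0 in all 5 panels.

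The genes most like Il7r over the 6 arrays, among the 1124 other tested genes with an SD of at least 0.5, were Atad3a (Pearson r = 0.992), Ms4a4d (0.9914), Ccdc126 (0.9914), Mmd (0.9892) and Inpp5a (0.9891). The 6 points fall into groups and are given as a description. Ms4a4d measured 7.60 on the Foxo1KO/Foxo1AAA array, 5.12 and 5.49 in Foxo1KO, 7.60 in Foxo1AAA, and 6.97 and 6.89 in WT. Inpp5a, an inositol phosphate 5-phosphatase, measured 8.31 in Foxo1KO/Foxo1AAA, 6.08 and 6.40 in Foxo1KO, 8.08 in Foxo1AAA, and 7.28 and 7.47 in WT. All 5 were lowest on the Foxo1KO arrays and highest on the 2 arrays with Foxo1AAA, as Il7r was. That shared order follows from choosing them by their correlation with Il7r on these arrays. Il7r was the 1 member with a range of at least 1 log2 unit, so no such genes were sought for the others.

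**Figure D3:**
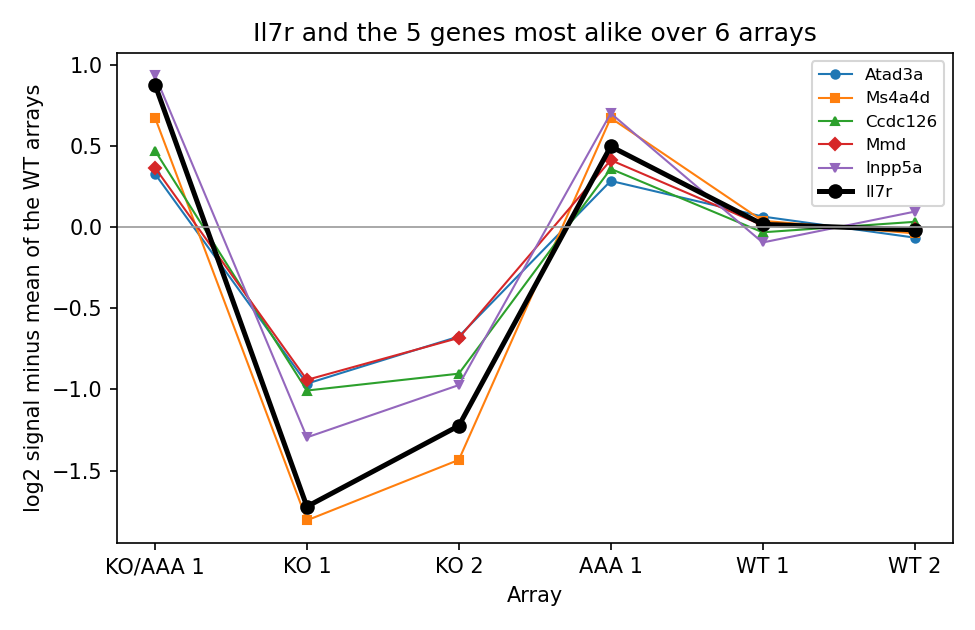
Log2 signal minus the mean of the WT arrays (vertical axis) on the 6 arrays (horizontal axis) for Il7r, drawn thick, and the 5 genes that correlate best with it. All 6 lie below 0 on both Foxo1KO arrays and above 0 on the Foxo1KO/Foxo1AAA and Foxo1AAA arrays.

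Factors known to act on the Il7r gene, or linked to its expression in T cells, were described from a list of 10, all measured. In Foxo1KO 3 were lower than in WT and 1 was higher, and the list's median difference was -0.09, against 0.03 over all tested genes. Of all tested genes 21.8% were called in this comparison and 39.8% in Foxo1KO/Foxo1AAA against Foxo1KO. Foxp1, known to compete with Foxo1 at an Il7r enhancer in naive T cells, fell by 1.60 (adjusted p = 1.11e-05): it read 11.30 in Foxo1KO/Foxo1AAA, 10.68 and 10.59 in Foxo1KO, 11.48 in Foxo1AAA, and 12.22 and 12.25 in WT. Tbx21 (T-bet), the Th1 factor, rose by 2.23 (adjusted p = 8.12e-05). Klf2 fell by 0.68 (adjusted p = 0.00429) and Foxo1 by 0.43 (adjusted p = 0.0448). The Foxo1 call ended without WT replicate 2 (difference -0.27, adjusted p = 0.237) and without Foxo1KO replicate 1 (0.0628) or 2 (0.225). Gfi1, a repressor of Il7r, differed by 0.01 (adjusted p = 0.956), and the Ets family members Gabpa and Ets1 by 0.03 and -0.20 (adjusted p = 0.899 and 0.221). Relative to Foxo1KO, in Foxo1KO/Foxo1AAA Foxp1 rose by 0.66, Klf2 by 0.67 and Runx1 by 0.68. Tbx21 fell by 1.17, the Foxo1 probe set by 1.10 and the glucocorticoid receptor Nr3c1 by 0.54. Whether the Foxo1 probe set reads the Foxo1AAA transcript was not known, so its fall is not a measure of total Foxo1 RNA. The Nr3c1 difference was 0.00 (adjusted p = 0.975) with the mean of its probe sets.

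The ligands were measured in the same cells. Of 6 gamma chain cytokines 4 passed the filter. In Foxo1KO 2 of these were higher than in WT and none lower, where 21.8% of all tested genes were called. Il4 rose by 1.44 (adjusted p = 0.000158): it read 7.63 in Foxo1KO/Foxo1AAA, 7.13 and 6.75 in Foxo1KO, 7.07 in Foxo1AAA, and 5.64 and 5.36 in WT. Il21 rose by 0.69 (adjusted p = 0.0219), a call that ended without WT replicate 1 (0.0714) or Foxo1KO replicate 1 (difference 0.44, 0.142). Il2, which Treg cells are known to make little of, measured 7.47 in Foxo1KO/Foxo1AAA, 5.55 and 4.99 in Foxo1KO, 6.41 in Foxo1AAA, and 5.46 and 5.28 in WT. It was higher in Foxo1KO/Foxo1AAA than in Foxo1KO by 2.20 (adjusted p = 0.000119), and Il21 and Il4 by 1.32 and 0.69. Of all tested genes 39.8% were called there, 19.6% higher. The Il4 call in that comparison ended without Foxo1KO replicate 2 (0.50, adjusted p = 0.0616) and with a second quantile normalization (0.0509), and the Il21 call with probe sets averaged (0.32, 0.0993). Differences from groups near or below the dimmest tested mean, such as Il2 in Foxo1KO and WT and Il21 in WT, are understated. Il7 and Il15, cytokines made mainly by stromal and myeloid cells, lay between 4.49 and 5.40 on all arrays and were not tested.

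Of 4 chains outside the 6 that pair with them or bind the same cytokines, Il9r and Il13ra1 were too dim to be tested. Among all tested genes 11.2% were called higher in Foxo1KO than in WT, and 20.2% lower in Foxo1KO/Foxo1AAA than in Foxo1KO. Il15ra, which presents IL-15, rose by 0.57 in Foxo1KO (adjusted p = 0.00606), and without Foxo1KO replicate 2 its adjusted p was 0.0505. Crlf2, the receptor chain for TSLP that joins with Il7r, rose by 0.51 in Foxo1KO (adjusted p = 0.00616), where Il7r fell. It measured 11.86 in Foxo1KO/Foxo1AAA, 12.17 and 12.31 in Foxo1KO, 11.65 in Foxo1AAA, and 11.77 and 11.69 in WT. It fell by 0.38 in Foxo1KO/Foxo1AAA against Foxo1KO (adjusted p = 0.034), and that call ended without Foxo1KO replicate 2 (0.112) and with median centring (0.0994).

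Of 8 measured kinases and STATs, 3 rose and 2 fell in Foxo1KO, with a median of 0.11. The share called over all tested genes was 21.8% there and 39.8% in Foxo1KO/Foxo1AAA against Foxo1KO. Jak2 rose by 0.53 (adjusted p = 0.00357) and Jak3, the kinase of the gamma chain, by 0.45 (adjusted p = 0.00767). Stat5b, a factor downstream of IL-2 and IL-7, fell by 0.46 (adjusted p = 0.0073), at 10.10 in Foxo1KO/Foxo1AAA, 9.97 and 9.92 in Foxo1KO, 10.26 in Foxo1AAA, and 10.39 and 10.41 in WT. Stat5a differed by 0.15 (adjusted p = 0.378) and Stat6 by -0.07 (adjusted p = 0.717). Jak1, the kinase of the chains that signal beside the gamma chain, fell by 0.45 (adjusted p = 0.0175). That call was lost without WT replicate 2 (difference -0.33, 0.119), Foxo1KO replicate 1 (-0.43, 0.0934) or Foxo1KO replicate 2 (-0.47, 0.067). Stat3 rose by 0.32 (adjusted p = 0.0489), a call lost when any WT or Foxo1KO array was left out (0.065 to 0.213) and with its most variable probe set (0.14, 0.445). Against Foxo1KO, the Foxo1KO/Foxo1AAA array showed 3 calls: Jak1 rose by 0.55, Jak2 fell by 0.83 and Tyk2 fell by 0.54, with an adjusted p of 0.061 without Foxo1KO replicate 2.

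The feedback inhibitors and phosphatases of these receptors moved in both directions. Of 9 measured, 3 rose and 3 fell in Foxo1KO, with a median of -0.11. Among all tested genes 21.8% were called there, and 39.8% in Foxo1KO/Foxo1AAA against Foxo1KO. The STAT-induced inhibitors Socs3 (1.02, adjusted p = 0.000629), Socs1 (0.78, adjusted p = 0.000866) and Cish (0.57, adjusted p = 0.00305) rose. Cish, a classic STAT5 target, measured 10.66 in Foxo1KO/Foxo1AAA, 11.61 and 11.75 in Foxo1KO, 10.29 in Foxo1AAA, and 11.11 and 11.12 in WT. Both Foxo1KO arrays were the highest for Cish, and both arrays with Foxo1AAA the lowest. The adaptor Sh2b3 (Lnk) and the phosphatase Ptpn6 (SHP-1), both inhibitors of cytokine signalling, fell by 0.78 and 0.58 (adjusted p = 0.000596 and 0.00258). Socs2 fell by 0.33 (adjusted p = 0.0354), and its difference was -0.29 to -0.36 with any WT or Foxo1KO array left out, past the threshold in none of these fits (0.0851 to 0.152). In Foxo1KO/Foxo1AAA against Foxo1KO, Socs2 rose by 1.51, Ptpn6 by 0.87 and Sh2b3 by 0.70, while Cish fell by 1.02, Socs1 by 0.76, Socs3 by 0.67 and Ptpn2 by 0.34. The call of Ptpn2 was lost when any WT or Foxo1KO array was left out (0.0545 to 0.112) and with its probe sets averaged (-0.16, 0.208). That of Socs3 was lost with its most variable probe set (-0.33, 0.0588). With its probe sets averaged, Sh2b3 differed by 0.23 in that comparison (adjusted p = 0.0811).

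Genes known as responses to STAT5 or STAT6 did not move as a group. Of 12 measured, 11 were tested, as Foxp3 was too dim. Of the 11, 2 rose and 4 fell in Foxo1KO, with a median of -0.12, where 21.8% of all tested genes were called. That share was 39.8% in Foxo1KO/Foxo1AAA against Foxo1KO. The survival gene Bcl2, which IL-7 is known to maintain, fell by 1.51 (adjusted p = 2.18e-05), reading 11.85 in Foxo1KO/Foxo1AAA, 10.71 and 10.80 in Foxo1KO, 12.07 in Foxo1AAA, and 12.19 and 12.35 in WT. Myc fell by 0.64 (adjusted p = 0.00146), the kinase gene Pim2 by 0.50 (adjusted p = 0.0122) and Lta by 0.41 (adjusted p = 0.0423). Prdm1 (Blimp-1) and the cytokine Osm rose by 1.27 and 0.63 (adjusted p = 6.51e-05 and 0.0063). The Pim2 call ended without Foxo1KO replicate 2 (difference -0.37, adjusted p = 0.079), and the Lta call without WT replicate 1 (0.115), WT replicate 2 (0.0746) or Foxo1KO replicate 1 (-0.24, 0.232). When Foxo1KO/Foxo1AAA was set against Foxo1KO, Pim2 rose by 2.17, Bcl2 by 1.09 and Myc by 0.34, and Osm fell by 0.72. Leaving out any WT or Foxo1KO array ended the Myc call (0.0576 to 0.144), as did a second quantile normalization (0.17, 0.206).

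Adaptors and PI3K genes were mostly not called in Foxo1KO against WT, where 21.8% of all tested genes were. That share was 39.8% in Foxo1KO/Foxo1AAA against Foxo1KO. Of 8 measured, Akt1 rose by 0.36 and Sos1 fell by 0.38 in Foxo1KO (adjusted p = 0.0214 and 0.0408). Both calls ended when 1 array was left out: adjusted p was 0.0646 to 0.104 for Akt1 without any of the 4 arrays, and for Sos1 0.176 without WT replicate 1 and 0.228 without Foxo1KO replicate 1. With probe sets averaged Akt1 differed by 0.20 (0.118) and Sos1 by -0.15 (0.203). On the Foxo1KO/Foxo1AAA array, against Foxo1KO, Sos1 rose by 0.74 and Irs2 by 0.45, and Grb2 fell by 0.43, but Grb2 was not past the threshold without Foxo1KO replicate 1 (-0.41, 0.0766), with median centring (-0.35, 0.056), with probe sets averaged (-0.28, 0.1) and with the most variable probe set (-0.13, 0.524).

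**Figure D4:**
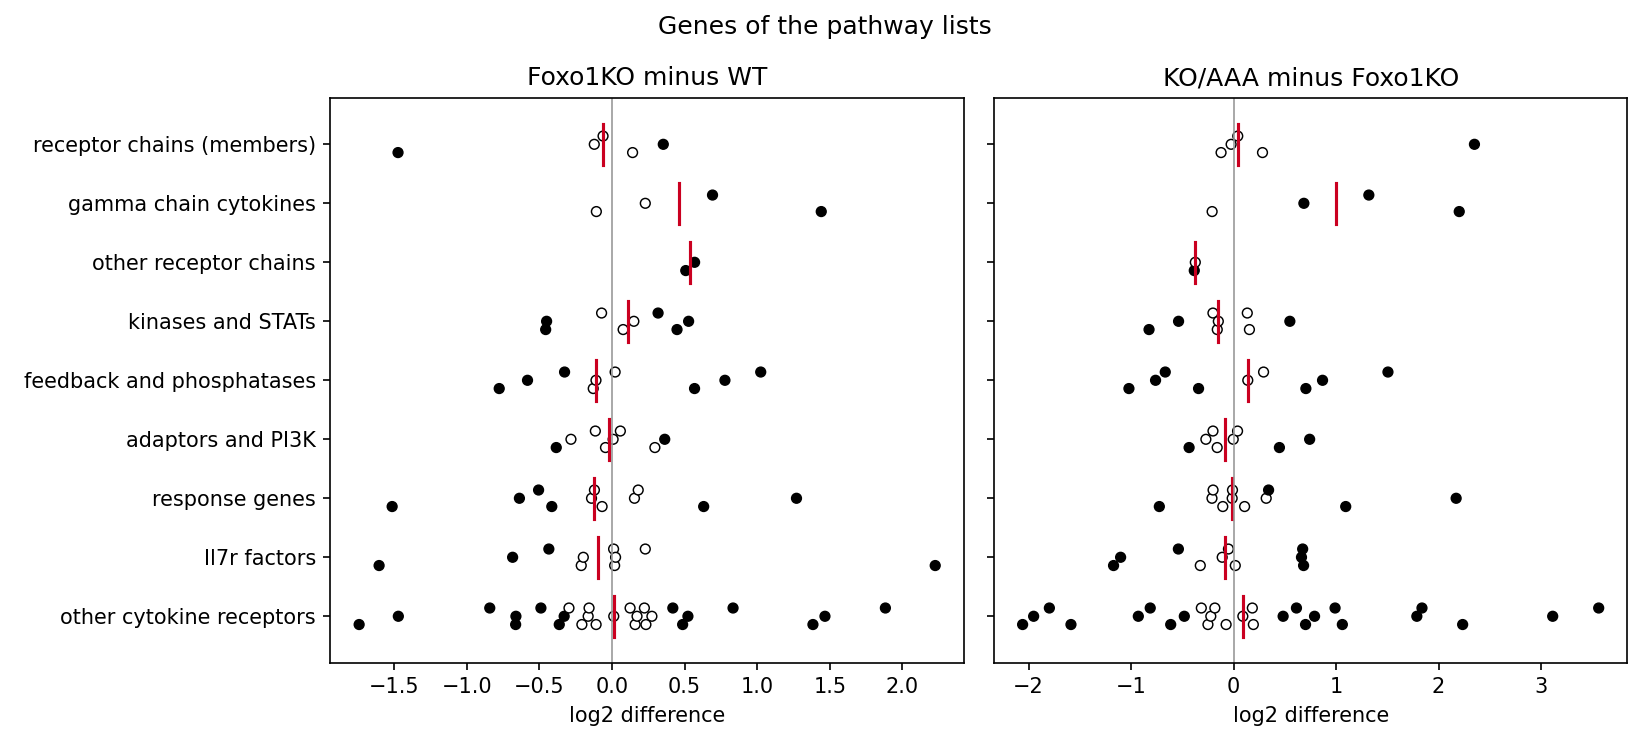
Log2 differences (horizontal axes, which differ in scale) of single genes in the receptor chains and the pathway lists (rows), in Foxo1KO minus WT on the left and Foxo1KO/Foxo1AAA minus Foxo1KO on the right; filled points passed the adjusted threshold and red bars mark each row's median. On the left Il7r at -1.47 stands far from the other 4 receptor chains, and the row of other cytokine receptors runs from -1.74 to 1.88.

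Cytokine receptors without the gamma chain served as a comparison. Of 27 tested, 7 rose and 8 fell in Foxo1KO, against 1 and 1 of the 5 members, and no test of that difference was made. The share of all tested genes called was 11.2% higher and 10.7% lower. The median of the 27 was 0.01. Il6ra and its partner Il6st fell by 1.74 and 1.47 (adjusted p = 1.09e-05 and 4.28e-05). Il6ra measured 10.65 in Foxo1KO/Foxo1AAA, 8.90 and 8.72 in Foxo1KO, 10.74 in Foxo1AAA, and 10.52 and 10.58 in WT. The decoy receptor Il1r2 fell by 0.84 and Tgfbr2 by 0.66, a call that for Tgfbr2 ended with its probe sets averaged (-0.24, adjusted p = 0.0843). Il12rb1, a chain of the IL-12 receptor, rose by 1.88, Il17rb by 1.47, and the IL-18 receptor chains Il18rap and Il18r1 by 1.38 and 0.83. In Foxo1KO/Foxo1AAA against Foxo1KO these 8, the largest calls of each direction, turned the other way, all called. Il6ra was at 1.84, Il6st at 1.79, Il1r2 at 2.23 and Tgfbr2 at 0.70. Il12rb1 was at -1.59, Il17rb at -1.95, Il18rap at -1.80 and Il18r1 at -2.06. Both comparisons share the Foxo1KO arrays. Of the 27, 11 were called higher and 8 lower there, where 19.6% and 20.2% of all tested genes were. The smaller calls did not all turn: Csf2rb2 was called higher in both comparisons (0.42 and 0.79). Ifngr1, Il3ra and Tgfbr3 were not called in the second (-0.32, -0.07 and 0.19). Of the 15 calls in Foxo1KO, 8 held with each of the 4 arrays left out in turn. Without Foxo1KO replicate 2 the count of lower genes was 4. Csf1r, a receptor and one of the myeloid markers above, was higher by 3.56 in Foxo1KO/Foxo1AAA than in Foxo1KO.

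Markers of Treg states were set beside Il7r. All 4 measured markers of central or naive T cells (Ccr7, Id3, Lef1 and S1pr1) fell in Foxo1KO, by 0.55 to 2.35, and 5 of 6 effector Treg markers rose. Of all tested genes 10.7% were called lower and 11.2% higher. The summed signal of the central markers was 13.26 in Foxo1KO/Foxo1AAA, 12.52 and 12.50 in Foxo1KO, 13.51 in Foxo1AAA, and 13.37 and 13.49 in WT, in log2 units. That of the effector markers was 14.30 in Foxo1KO/Foxo1AAA, 15.54 and 15.62 in Foxo1KO, 13.88 in Foxo1AAA, and 14.13 and 13.77 in WT. Gzmb alone read 14.41 and 14.47 on the Foxo1KO arrays, and not all 6 effector markers followed the sum. In Foxo1KO/Foxo1AAA against Foxo1KO 3 were called lower, while Il10 was called higher by 0.80. Among all tested genes 20.2% were called lower and 19.6% higher there. In Foxo1AAA against WT 3 were called lower, while Prdm1 and Il10 were called higher by 1.15 and 1.08. In that comparison 27.5% of all tested genes were called, 13.4% higher. The part of such a change in the make-up or state of the cells in the Il7r values was not tested.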

How the data were processed

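The deposited values are on the log2 scale and were made by the authors; the submitters' processing notes name RMA, limma 3.12.1 and R 2.15; biotinylated cRNA was made from 2 ug of total RNA, per the labels' protocols. The 6 columns were used as deposited; their medians were 6.27 to 6.41. Arrays limit precision by their number. Probe sets with 1 listed gene (34958; 932 had several and 9211 were not listed) were grouped by symbol, and the brightest was kept for each of 18194 genes. Genes in the lowest 25% by mean were left out, leaving 13645. One limma 3.58.1 fit (R 4.3.3) held a coefficient for each of the 4 groups, with 2 residual degrees of freedom, all from the WT and Foxo1KO pairs, and a prior of 6.59. Tests were two-sided, with Benjamini-Hochberg adjustment over all tested genes, and were tested on simulated data. The labels do not say how many mice each array stands for; Y chromosome signal was absent from the first and present on the second array of both the Foxo1KO and the WT pair, so the arrays of a pair were not made from the same animals alone. The 5 comparisons and the interaction share arrays. Named genes were the 6 members, the called genes of each pathway list (up to 4 a direction by size in Foxo1KO against WT) with others as values, and the 5 genes most like Il7r. Members and lists were chosen with earlier results of these data known. The alternatives comprised filters, probe set rules, scalings, variance priors, left-out arrays, 4 arrays only and a replicate block.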

Additional observations from a re-analysis of the deposited data

Results flagged for a closer look

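The knockout difference of Il7r was opposite in sign with and without Foxo1AAA. It was 0.38 between the Foxo1KO/Foxo1AAA and Foxo1AAA arrays and -1.47 between Foxo1KO and WT, and the interaction of 1.85 passed the test (adjusted p = 0.00586, range over alternatives 0.000544 to 0.0123). The first of these differences compares 1 array with 1 and was not called by itself.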

How the results depend on the processing

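Of 400 repeats of a member's difference under the alternatives, 354 kept their direction and side of the threshold, 14 lost a call, 11 gained one and 21 changed sign. Il7r kept both in 76 of 80, and in the other 4 the Foxo1AAA difference from WT was called. In Foxo1KO against WT, 2 members were called and 1 with a replicate block (Il21r adjusted p = 0.0633) or without any 1 array (1 to 1). The labels do not pair the replicate numbers and the differences between replicates correlated at -0.096 across genes, although Y chromosome signal followed the number (absent on number 1, present on number 2). The block changed no other member's call, and all genes called in Foxo1KO against WT were 2458 with it and 2980 without it on the same 4 arrays. In Foxo1KO/Foxo1AAA against Foxo1KO, 3 members were called instead of 1 with the probe set of largest interquartile range. This rule picks sets by their spread over the arrays that are then tested, which favours calls. In Foxo1AAA against WT the 1 member became 3 with the mean of probe sets or the set of largest range, 2 with median centring or a variance trend, 0 with a second quantile normalization, and 0 to 2 with 1 array left out. In Foxo1KO/Foxo1AAA against WT the 3 members became 5 with the set of largest range, 1 with a second quantile normalization, and 1 to 3 with 1 array left out.

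With the mean of probe sets and with the set of largest range, Il2ra differed by 0.0804 and 0.22 in Foxo1KO against WT, 0.0493 and 0.22 in Foxo1KO/Foxo1AAA against Foxo1KO, and 0.13 and 0.44 in Foxo1KO/Foxo1AAA against WT, the last called (adjusted p = 0.0223); with the set of largest range it differed by 0.0503 in Foxo1AAA against WT. With 1 array left out, Il2ra ranged from -0.21 (without Foxo1KO replicate 2) to 0.0894 (without Foxo1KO replicate 1) in Foxo1KO against WT, from -0.27 (replicate 1) to 0.0279 (replicate 2) in Foxo1KO/Foxo1AAA against Foxo1KO, and from -0.0308 (replicate 1) to 0.27 (replicate 2) in the interaction. In Foxo1KO/Foxo1AAA against Foxo1KO, Il4ra was 0.0564 with median centring and Il21r -0.15 with a second quantile normalization, and outside the members Nr3c1 was 0.0044 with the mean of probe sets and Csf2ra -0.25 with the set of largest range. Between Foxo1KO/Foxo1AAA and Foxo1AAA, Il4ra was 0.16 with the mean of probe sets and 0.0041 with the set of largest range, which gave -0.0715 for Il2rb. The Il2rb interaction was -0.14 with the mean of probe sets, -0.28 with the set of largest range, -0.0251 with median centring, -0.0136 with a second quantile normalization, -0.05 without WT replicate 1 and -0.12 without Foxo1KO replicate 1. Some calls outside the members held but moved by over 1.5 times: with probe sets averaged, Foxo1KO minus WT was -0.97 for Il6ra, -0.38 for Sh2b3 and 0.41 for Il21, and Foxo1KO/Foxo1AAA minus Foxo1KO was 1.03 for Il6ra, 0.63 for Socs2, 0.51 for Ptpn6, 0.36 for Tgfbr2, 0.35 for Sos1, 0.34 for Runx1 and -0.73 for Foxo1; with the set of largest range that comparison gave 1.55 for Foxp1, 1.45 for Jak1, 1.10 for Runx1 and 0.56 for Bcl2. The cause was not tested.

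Counts over all features moved by over 1.5 times in these cases. With every probe set they were 6187 against 2980 genes in Foxo1KO against WT, 13826 against 5430 in Foxo1KO/Foxo1AAA against Foxo1KO, 10647 against 3758 in Foxo1AAA against WT, 10972 against 4193 in Foxo1KO/Foxo1AAA against WT, 25 against 10 between the 2 arrays with Foxo1AAA, and 1345 against 811 for the interaction. With the lowest 50% left out they were 3423 in Foxo1KO/Foxo1AAA against Foxo1KO, 2236 in Foxo1AAA against WT and 3 between the arrays with Foxo1AAA. The count of 10 ranged from 3 to 91 over the alternatives, and that of 811 was 443 without Foxo1KO replicate 2.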
